A study of Mus musculus with 16 samples.

Results

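The genes described are 9 regulators of the intermediate mesoderm and the nephric duct: Lhx1, Ret, Gfra1, Pax2, Pax8, Osr1, Gata3, Wt1 and Emx2. They were chosen by symbol, as every probe that the array annotation assigns to these genes, among 19057 genes named on the array. 14 probes carried a member's symbol and covered 8 genes; no probe named in the annotation used here carried Wt1, which was not analysed. Of the 8 genes, 4 (Lhx1, Ret, Osr1 and Gata3) had a probe above background on at least 4 of the 16 arrays and were tested among 11334 genes. The set was proposed with the genotype difference of the embryos in view, in which Lhx1 and Ret were known to be high in mutants, so the embryo difference is given for the members as a description, with no p-value and with nothing read from their calls.

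The tissues were C57BL/6J mouse embryos and yolk sacs collected 9.5 days post coitum (E9.5), and RNA was read on Illumina MouseWG-6 v2 arrays, which carry beads coated with gene probes. The control groups were wild-type (+/+) embryos and wild-type yolk sacs, and the mutant groups were embryos and yolk sacs homozygous (-/-) for a deletion of exon 6 of rudhira, whose symbol on the array is Bcas3. All came from matings of rudhira heterozygotes and were typed from the tail of the embryo, and mutants carry notes of retarded growth and of abnormal vessels in the labels. There were 8 RNA samples in 4 groups, and 2 repeat arrays per sample were averaged, so n = 2 per group. By the labels, embryo 1 and yolk sac 1 of a genotype are from the same conceptus, and likewise for number 2. The labels do not say that the conceptuses of a group came from separate litters, so the spread between them may leave out differences between litters.

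The intermediate mesoderm is the strip between somites and lateral plate from which the kidney and the gonad derive. Osr1 marks its early precursors, Lhx1, Pax2, Pax8 and Gata3 act in the forming nephric duct, and Wt1 and Emx2 act in the mesenchyme and the duct that follow. Gata3 and the Pax proteins maintain Ret, the receptor tyrosine kinase through which the duct answers GDNF from the adjacent mesenchyme, with Gfra1 as the co-receptor that binds the ligand. Several members are also expressed elsewhere at this stage: Lhx1 in hindbrain and spinal cord interneurons, Ret in enteric neural crest, and Gata3 in the otic region and the surface ectoderm.

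Of the 9 members, 6 had a promoter sequence in the RefSeq table of build GRCm38.p6, and Ret, Osr1 and Wt1 were not among them. The 250 bases before the annotated start are shown for Lhx1 and Gata3, the tested members with an entry, because both were measured above background and their levels across the 8 samples differed in pattern. The Lhx1 window lies on chromosome 11, minus strand, chr11:84525535-84525784, and the Gata3 window on chromosome 2, minus strand, chr2:9878601-9878850. Capitals mark matches to CCAAT or its complement ATTGG and to GGGCGG or its complement CCGCCC, read on both strands.
Lhx1: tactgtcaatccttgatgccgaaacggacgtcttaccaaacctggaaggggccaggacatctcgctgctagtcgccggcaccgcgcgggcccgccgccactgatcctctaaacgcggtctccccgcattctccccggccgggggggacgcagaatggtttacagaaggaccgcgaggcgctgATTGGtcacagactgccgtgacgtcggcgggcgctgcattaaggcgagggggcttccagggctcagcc
Gata3: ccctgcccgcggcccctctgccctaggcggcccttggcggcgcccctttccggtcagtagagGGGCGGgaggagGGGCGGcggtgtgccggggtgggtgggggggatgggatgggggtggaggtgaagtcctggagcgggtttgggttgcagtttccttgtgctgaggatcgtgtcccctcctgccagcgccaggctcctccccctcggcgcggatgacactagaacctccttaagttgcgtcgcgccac
The Lhx1 window held 1 match to the CCAAT letters, beginning 68 bases before the start, and 0 to GGGCGG. The Gata3 window held 2 matches to GGGCGG, beginning 188 and 176 bases before the start, and 0 to CCAAT. The motifs did not overlap. Over all 32851 promoter windows of this length in the table, 33.8% held CCAAT and 32.7% held GGGCGG on either strand, so the matches describe these letters and are no binding measurement.

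The arrays of the 8 samples each had 17382 to 19576 probes above background, and repeat arrays correlated at r = 0.996 to 0.998 across probes. The signal's 75th percentile ranged from 108.7 to 125.5 on embryo arrays, 97.6 to 140.7 on wild-type yolk sac arrays and 67 to 74.8 on mutant yolk sac arrays, so unscaled signals of the mutant yolk sacs run low for many probes. The lowest signal counted as above background was 10 to 12 on mutant yolk sac arrays and 16.7 to 21 on wild-type ones. Detection in yolk sacs of different genotype thus rests on different unscaled thresholds. Bcas3 gave signals of 331 and 391 in wild-type embryos, 270 and 664 in mutant embryos, 759 and 1244 in wild-type yolk sacs and 234 and 278 in mutant yolk sacs. The library labelled mutant embryo 2 thus read above both wild-type embryos, and where the probe lies relative to the deleted exon is not known here. Every embryo difference below that uses all 4 embryos draws on that library.

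Lhx1, a LIM homeobox transcription factor needed for the nephric duct, was the only member above background on all 16 arrays. Its brighter probe gave signals of 48.8 and 72.8 in wild-type embryos 1 and 2, 187 in mutant embryo 1 and 320 in mutant embryo 2 as labelled. In yolk sacs it gave 104 and 120 in the wild types and 84.5 and 72.6 in the mutants. Both mutant embryos exceeded all other samples on this unscaled signal. On the normalized log2 scale the levels were 5.79 and 6.28 in wild-type embryos, 7.59 and 8.21 in mutant embryos, 6.96 and 6.86 in wild-type yolk sacs and 7.16 and 6.87 in mutant yolk sacs. The yolk sac groups overlapped each other, while each embryo group stood apart from the yolk sacs.

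The second Lhx1 probe was dimmer, with signals of 15.6 and 25.7 in wild-type embryos, 52.3 and 104 in mutant embryos, 38.5 and 58.6 in wild-type yolk sacs and 30.6 and 24.8 in mutant yolk sacs. It was above background on 13 of the 16 arrays, of which 1 was among the 4 wild-type embryo arrays. Both probes placed both mutant embryos above both wild-type embryos, but on the dimmer probe mutant embryo 1 lay below wild-type yolk sac 2. The mean signal in mutant embryos was 4.17 times that in wild-type embryos by the brighter probe, and the dimmer probe is too close to background in wild-type embryos for a ratio.

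Ret was above background in embryos only. Its brightest probe gave signals of 53.7 and 41.5 in wild-type embryos, 131 and 222 in mutant embryos 1 and 2 as labelled, and it was above background on all 8 embryo arrays and on 0 of the 8 yolk sac arrays. Log2 levels were 5.89 and 5.62 in wild-type and 7.10 and 7.69 in mutant embryos, and 4.36 to 4.43 in the 4 yolk sacs, where none was above background. The second Ret probe gave 25 and 20.7 in wild-type embryos and 54.9 and 102 in mutant embryos, with 1 of 4 wild-type and all 4 mutant embryo arrays above background. The mean signal of mutant embryos was 3.70 times that of wild-type embryos by the brightest probe, and the second probe is too dim in wild-type embryos for a ratio. The third Ret probe was above background on 0 of 16 arrays.

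Gfra1, the co-receptor, had 1 probe near background. Its signals were 22.5 and 17.5 in wild-type embryos, 21.1 and 18.9 in mutant embryos, 16.6 and 15.1 in wild-type yolk sacs and 3.8 and 6.6 in mutant yolk sacs, with 2 of 16 arrays above background. Embryos of both genotypes covered the same range.

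Osr1, a zinc finger transcription factor of the early intermediate and lateral mesoderm, gave signals of 63.5 and 42.7 in wild-type embryos and 77.4 and 72.3 in mutant embryos. Yolk sacs gave 13.1 and 15.8 in the wild types and 7.45 and 20.0 in the mutants. Its probe was above background on all 8 embryo arrays and on 2 yolk sac arrays, both of mutant yolk sac 2, where the signal threshold was lower than in wild-type yolk sacs. Gata3, a zinc finger transcription factor of the duct, gave 99.6 and 91.6 in wild-type embryos and 113 and 160 in mutant embryos. In yolk sacs Gata3 gave 12.1 and 24.9 in the wild types and 9.75 and 19.4 in the mutants, above background on 3 of 8 arrays. Both genes were therefore read in embryos, and the embryo groups lay closer together than for Lhx1 and Ret.

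Pax2, Pax8 and Emx2 were not above background on any of the 16 arrays. The pair of Pax2 probes gave sample means of both repeat arrays between -4.95 and 6.70. Of the 3 Pax8 probes, the highest sample mean was 19.1, in the library labelled mutant embryo 2. On the same probe it was 5.45 in mutant embryo 1 and 5.10 and 1.60 in wild-type embryos. Emx2 gave a sample mean of at most 0.25. For these genes the arrays give a bound only.

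**Figure D1:**
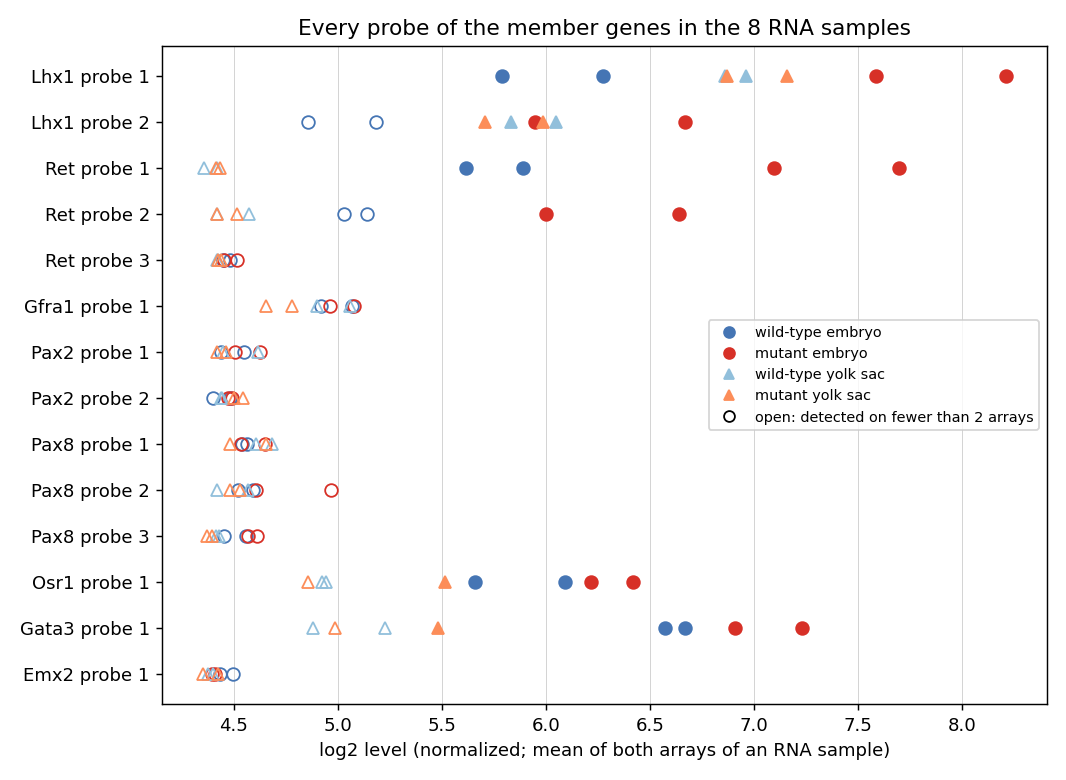
Normalized log2 level (x axis) of all 14 member probes (y axis) in the 8 RNA samples. Points are means of both repeat arrays, with circles for embryos, triangles for yolk sacs, and open symbols where fewer than 2 arrays of a sample were above background. Lhx1 and Ret spread to the right in mutant embryos, and all probes of Gfra1, Pax2, Pax8 and Emx2 are drawn open.

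**Figure D2:**
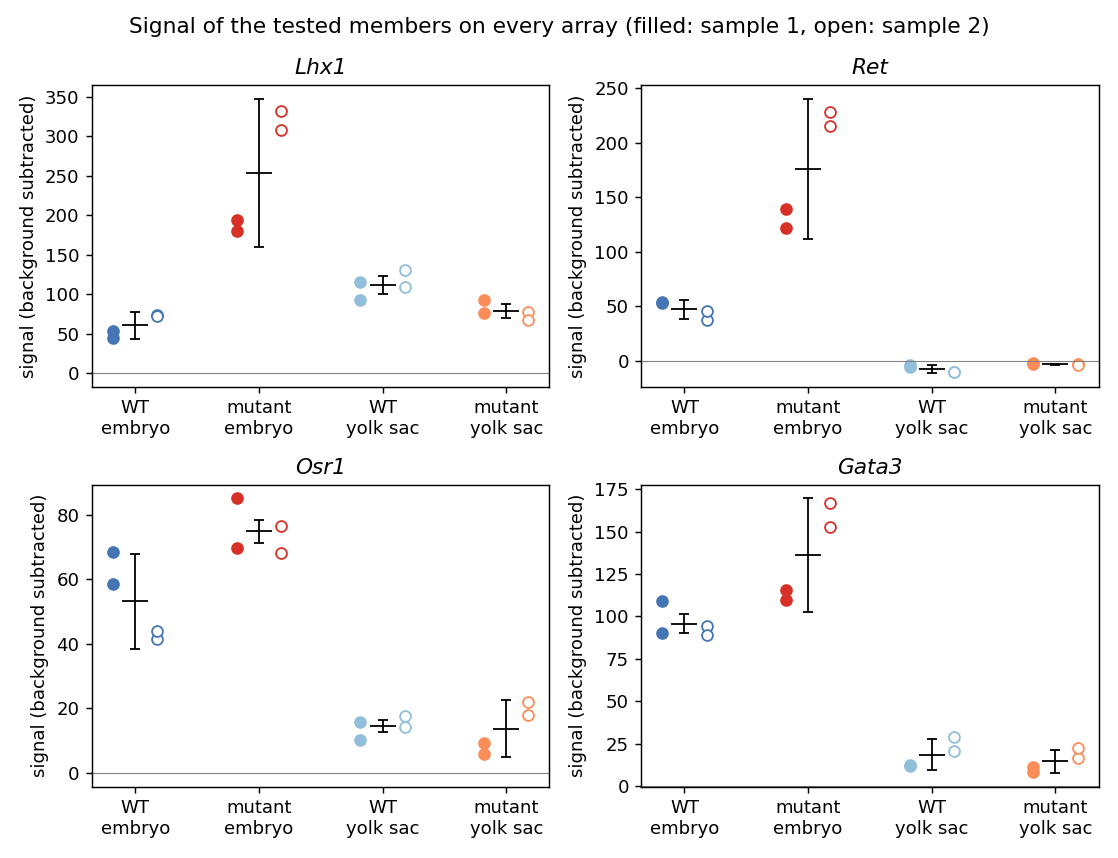
Background-subtracted signal (y axis) of the 4 tested members on every array, by group (x axis); filled points are arrays of sample 1 and open points of sample 2, and bars are the mean and SD of the 2 sample values. Lhx1 in mutant embryos averaged 187 and 320 per sample, above every yolk sac at 72.6 to 120.

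In the embryo, Lhx1 was 1.87 higher in mutants on the log2 scale (SE of the fit 0.24, n = 2 per group) and Ret was 1.64 higher (SE 0.19). Gata3 was 0.45 higher (SE 0.20) and Osr1 0.44 higher (SE 0.23). Among 11334 genes ordered from the highest rise, Lhx1 was at place 9, Ret at 17, Gata3 at 329 and Osr1 at 339. The genotype fit called 2 of the 4 tested members higher, Lhx1 and Ret, where 2.13% of all genes were called at an adjusted p under 0.05 (0.609% higher and 1.52% lower), and nothing is read from that count because the members were chosen with this contrast known. The other 4 members with a probe (Gfra1, Pax2, Pax8 and Emx2) were too close to background for a difference to be given.

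For Lhx1 the lowest mutant embryo stood 1.31 above the highest wild-type embryo on the log2 scale, and for Ret the gap was 1.20. For Osr1 the gap was 0.13 and for Gata3 0.24. Repeat arrays of a sample, which show the spread of the assay and not that between embryos, differed by at most 0.275 for Osr1 and 0.30 for Gata3, more than those gaps. In all 4 tested members both mutant embryos lay above both wild-type embryos, an order that the choice of the members favours and from which nothing is read (25.2% of all tested genes had it, and 26.7% the opposite order). Within genotype, the library labelled mutant embryo 2 exceeded mutant embryo 1 by 0.63 in Lhx1, 0.60 in Ret and 0.32 in Gata3, while Osr1 differed by -0.20. Without that library the difference was 1.55 for Lhx1, 1.34 for Ret, 0.29 for Gata3 and 0.55 for Osr1, and between wild-type embryo 2 and mutant embryo 1, which the series design text gives as its pair, it was 1.31, 1.48, 0.33 and 0.76. Osr1 was 0.23 without wild-type embryo 2.

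**Figure D3:**
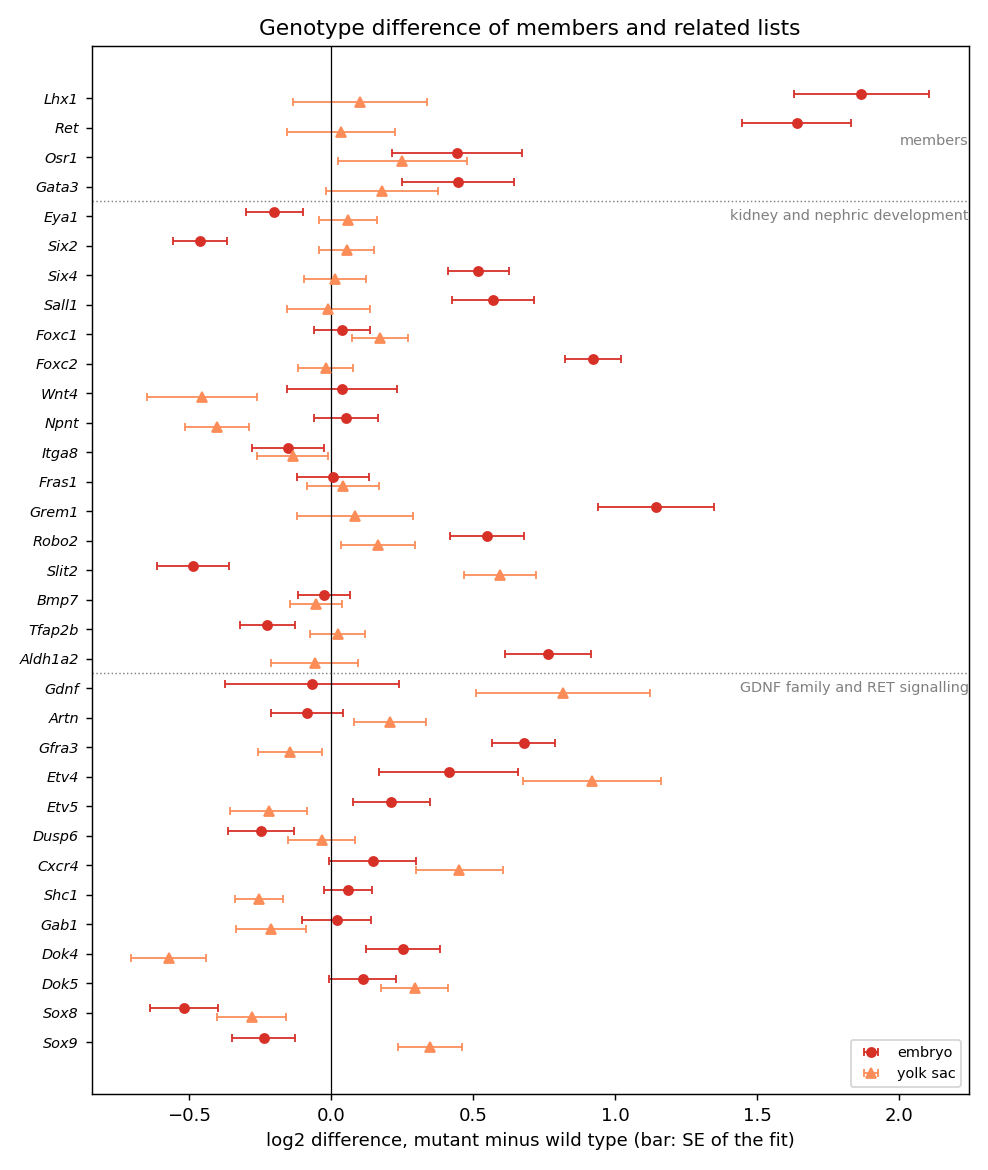
Log2 difference, mutant minus wild type, of the 4 tested members and of the tested kidney and RET signalling genes in embryos (circles) and yolk sacs (triangles); bars are the SE of the fit. Lhx1 at 1.87 and Ret at 1.64 in embryos lie apart from their yolk sac values, and the members' embryo values carry no test.

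In yolk sacs no tested member passed the threshold by genotype. Of 4 members 0 passed and 0 had an unadjusted p under 0.05 in limma, where 1.26% of all genes passed (0.565% higher and 0.697% lower). The difference of mutant minus wild type was 0.10 for Lhx1 (SE 0.24, adjusted p = 0.848), 0.25 for Osr1 (SE 0.23, adjusted p = 0.577) and 0.18 for Gata3 (SE 0.20, adjusted p = 0.652). Ret was not above background in either genotype and has no fold. The groups overlapped in all 4 members, against 23.8% of genes with mutants wholly higher and 24.1% wholly lower. For Lhx1 the unscaled signal was lower in mutants (78.5 ± 8.41, SD, n = 2) than in wild types (112 ± 11.3), and the log2 level, which is scaled between arrays, was 0.10 higher, so the order depends on scaling.

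Between tissues, Ret, Gata3 and Osr1 were lower in yolk sac and Lhx1 was not called. Ret, Gata3 and Osr1 had passed the filter of 4 arrays through their embryo arrays, with 0, 3 and 2 yolk sac arrays above background. The filter thus favoured a lower yolk sac level in them. The contrast also uses the mutant embryo values in view when the set was proposed. For these reasons nothing is read from the p-values of these 3 genes. Ret fell by 2.17 on the log2 scale (SE 0.14, adjusted p = 3.51e-06), and since it was below background in yolk sac, embryos were at least 2.83-fold higher. The same bound was at least 1.58-fold in wild types and 5.07-fold in mutants. Gata3 fell by 1.70 (SE 0.14, adjusted p = 1.56e-05) and Osr1 by 1.04 (SE 0.16, adjusted p = 0.000575). Of the 8 yolk sac arrays 3 were above background for Gata3 and 2 for Osr1, and since 0 of the 4 wild-type yolk sac arrays were so for Osr1, wild-type embryos were at least 1.71-fold higher. Lhx1 gave a mean difference of -0.0026 (SE 0.17, adjusted p = 0.989) averaged over genotypes. Of the 4, 3 fell, where 40.9% of all genes were called lower and 36.7% higher in yolk sac. The groups did not overlap in those 3 members, as in 36.9% of genes, with 32.9% in the opposite order. Since the filter kept those 3 members through their embryo arrays, nothing is read from their count or their order.

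Within each conceptus Lhx1 had values of opposite sign in the 2 genotypes. Yolk sac minus embryo was 1.18 and 0.58 in the wild-type conceptuses and -0.43 and -1.34 in the mutant ones. Ret was above background in every embryo and in no yolk sac of the 4 conceptuses. Gata3 gave -1.78, -1.35, -1.92 and -1.75 in the same order. Osr1 gave -1.17, -0.71, -1.56 and -0.70. Gata3 and Osr1 had the same sign in all 4 conceptuses, with several of the yolk sac levels at background. The mutant values for Lhx1 and Ret rest on the embryo levels already described, since these are the same samples.

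**Figure D4:**
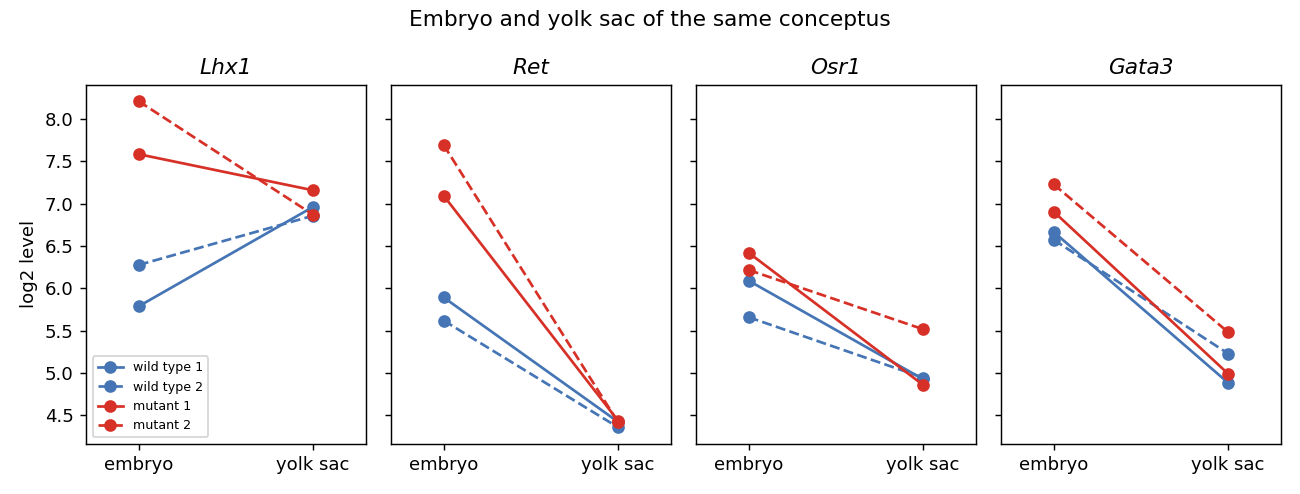
Log2 level of each tested member in the embryo and yolk sac of the same conceptus, with lines joining the pair (wild type blue, mutant red; solid for number 1, dashed for number 2); the Ret points in yolk sac are at background. Lines for Lhx1 rise in wild-type conceptuses (1.18 and 0.58) and fall in mutant ones (-0.43 and -1.34).

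Whole embryos were measured, and fewer cells of a type and less RNA per cell cannot be told apart in these values. The visceral endoderm, which lines the yolk sac and expresses Lhx1 earlier in development, was read by 9 of 10 listed markers. Their summed signal was 450 and 17104 in wild-type embryos, 7405 and 11514 in mutant embryos 1 and 2 as labelled, and 79047 to 123050 in yolk sacs. Wild-type embryo 2 had the highest sum of the embryos, with a Lhx1 signal of 72.8. On the brighter Lhx1 probe both mutant embryos exceeded every yolk sac, and on the dimmer one mutant embryo 1 did not; the part of visceral endoderm in the Lhx1 values was not tested. The 9 markers gave 0 calls between embryo genotypes in limma, and 0 had an unadjusted p under 0.05, with 9 above 0 and a median of 1.15. That median was -1.01 without wild-type embryo 1 (2 called) and 3.19 without wild-type embryo 2 (7 called), so the marker difference turns on which wild-type embryo is used. The 5 primitive erythroid markers summed to 71417, 71996 and 66334 in the first 3 embryos and 36252 in the library labelled mutant embryo 2, and their part in that library's values was not tested. Between embryo genotypes 0 of the 5 passed in limma and 4 had an unadjusted p under 0.05, as had 1413 of all 11334 genes. All 5 were below 0, with a median of -0.74, and of -0.17 without that library. Of the embryo-proper list 4 of 7 markers were tested, with mean log2 levels of 8.58 to 9.15 in embryos and 4.45 to 4.57 in yolk sacs, where their summed signal was at most 3.05. Meox1 and Tcf15, genes of the somites, rose in mutant embryos by 0.96 (SE 0.13, adjusted p = 0.0187) and 1.22 (SE 0.14, adjusted p = 0.0114). Sox2 and Neurog2, neural genes, were at -0.35 (adjusted p = 0.251) and -0.51 (adjusted p = 0.282), and the part of these tissue markers in the member values was not tested. Without the library labelled mutant embryo 2 neither Meox1 (adjusted p = 0.0668) nor Tcf15 (0.0892) passed, and Meox1 also lost its call without wild-type embryo 2 (0.0632) or mutant embryo 1 (0.0680). Of 7 trophoblast markers 2 were tested, with summed signals of 344 to 715 in embryos and 99.7 to 1356 in yolk sacs.

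**Figure D5:**
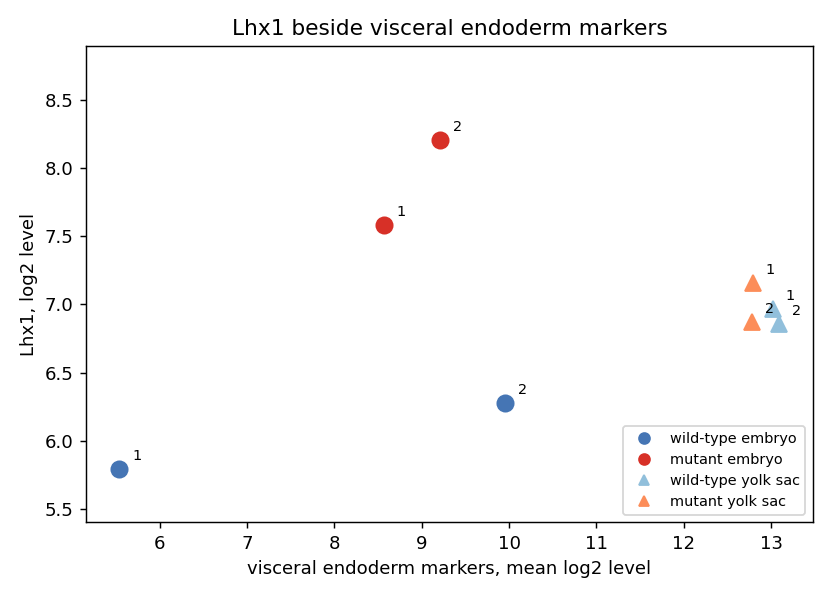
Log2 level of Lhx1 (y axis) against the mean log2 level of the 9 visceral endoderm markers (x axis) in the 8 RNA samples. Mutant embryos sit at marker levels of 8.56 and 9.21, and wild-type embryos at 5.54 and 9.96.

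In the kidney and nephric list, which leaves out the members, 16 of 26 genes were tested in embryos. By genotype 2 rose, 0 fell and 14 did not pass, where 0.609% of all genes rose and 1.52% fell. The median difference was 0.04 against 0.0002 over all genes. In limma 8 of the 16 had an unadjusted p under 0.05, as had 1413 of all 11334 genes. This list and the lists in the paragraphs below were chosen with earlier results of these data known. Nothing is therefore read from their counts beside those of all genes. Foxc2, a forkhead factor of paraxial and intermediate mesoderm, gave 185 and 169 in wild-type and 311 and 381 in mutant embryos and rose by 0.92 (SE 0.10, limma adjusted p = 0.00914). Grem1, a secreted BMP antagonist, gave 48.6 and 32.3 in wild-type and 77.6 and 135 in mutant embryos and rose by 1.14 (SE 0.20, adjusted p = 0.0402). Foxc2 lost its call without the library labelled mutant embryo 2 (adjusted p = 0.0601), and Grem1 did so without any single library other than mutant embryo 1 (adjusted p = 0.0605 to 0.196). In yolk sac 0 of the 16 passed in limma, where 1.26% of all genes did. An unadjusted p under 0.05 was found there for 2 of the 16 and for 2369 of all 11334 genes.

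Between tissues 12 of the 16 kidney genes were lower and 2 higher in yolk sac, where 40.9% of all genes were called lower and 36.7% higher. The median was -1.35 against -0.03 over all genes. The largest were all undetected in yolk sac: embryos were at least 19.7-fold higher in Tfap2b, 14.1-fold in Foxc1, 7.46-fold in Eya1 and 7.19-fold in Foxc2. Six2, Six4, Grem1, Robo2 and Aldh1a2 were undetected there as well. All these genes had passed the filter through their embryo arrays, which favoured a lower yolk sac level. Nothing is therefore read from the count or the median. Tfap2b and Foxc1 act in neural crest and mesoderm, and Eya1 acts in kidney mesenchyme and placodes. Bmp7 (1.20) and Fras1 (0.96), a signalling ligand and a basement membrane protein, were the 2 that were higher in yolk sac.

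In the GDNF and RET signalling list 13 of 22 genes were tested in embryos, with a median of 0.06. Of the 13, 1 rose, 0 fell and 12 did not pass, where 0.609% of all genes rose and 1.52% fell. In limma 2 of the 13 had an unadjusted p under 0.05, as had 1413 of all 11334 genes. Gfra3, the co-receptor for artemin, gave 18.6 and 9.65 in wild-type embryos, with 1 of 4 arrays above background, and 34.6 and 37.6 in mutant embryos. It passed as higher in mutants (adjusted p = 0.0315), the fitted difference of 0.68 (SE 0.11) being taken from a wild-type level near background, and it lost its call when any embryo or either wild-type yolk sac was left out (adjusted p = 0.0577 to 0.205). Gdnf, the ligand of the RET complex, gave 99.1 and 84.1 in wild-type and 80.9 and 91 in mutant embryos, a difference of -0.07 (adjusted p = 0.974). In yolk sac 0 of 13 passed in limma, where 1.26% of all genes did. An unadjusted p under 0.05 was found there for 7 of the 13 and for 2369 of all 11334 genes. Between tissues 3 were higher and 10 lower in yolk sac, where 36.7% of all genes were called higher and 40.9% lower. Gfra3 and Artn, with 0 and 1 yolk sac arrays above background, had passed the filter through their embryo arrays, so nothing is read from the count. Sox9 differed by -5.04 with all 8 yolk sac arrays above background, and Cxcr4 by -2.93 with 5 of the 8. Etv4 differed by -2.05 with 4 of the 8, all of mutants. Among wild types embryos were at least 3.91-fold higher in Etv4. Gab1 was 1.5 higher in yolk sac.

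Among paralogs of the members, 3 LIM homeobox genes fell in mutant embryos. Of 17 tested, 1 rose and 3 fell in mutant embryos, where 0.609% of all genes rose and 1.52% fell. The median of the list was -0.15. In limma 9 of the 17 had an unadjusted p under 0.05, as had 1413 of all 11334 genes. Lhx4, a LIM homeobox factor of motor neurons and pituitary, gave 69.9 and 86.6 in wild-type embryos and 10.8 and 1.25 in mutant embryos, where it was not above background, and was at least 2.43-fold lower in mutants (adjusted p = 0.00279). Lhx9, of limb, gonad and neural tube, gave 54.0 and 45.7 against 1.5 and -2.95 and was at least 1.67-fold lower (adjusted p = 0.00297). Both had passed the filter of 4 arrays only through the wild-type embryo arrays, where they were high. The filter thus favoured a lower mutant level, and nothing is read from their p-values or calls. Neither passed in limma with the authors' processed values (adjusted p = 0.220 for Lhx4 and 0.114 for Lhx9). The fits without a library used the same filtered genes. There the fitted difference ran from -1.87 to -1.58 for Lhx4 and -1.42 to -1.25 for Lhx9. In the embryo pair of the series design it was -1.21 for Lhx9. Isl1, of motor neurons and second heart field, gave 784 and 822 in wild-type and 466 and 506 in mutant embryos and fell by 0.78 (SE 0.09, adjusted p = 0.0119), a call lost without either wild-type embryo or the library labelled mutant embryo 2 (adjusted p = 0.0557 to 0.0850). Osr2, the Osr1 paralog, rose by 0.56 (SE 0.10, adjusted p = 0.0382) and lost the call whichever library was left out (adjusted p = 0.0573 to 0.289).

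In yolk sac 1 paralog of 17 passed, where 1.26% of all genes did. An unadjusted p under 0.05 in limma was found for 3 of the 17 and for 2369 of all 11334 genes. Isl1 was above background on 3 of 4 mutant arrays and 0 of 4 wild-type arrays, with a lower signal threshold on the mutant arrays. By the bound on scaled levels, Isl1 in mutants was at least 1.09-fold higher (limma adjusted p = 0.0388). That call was lost whichever library was left out (adjusted p = 0.0545 to 0.157). Between tissues 10 paralogs were lower and 3 higher in yolk sac, where 40.9% of all genes were called lower and 36.7% higher. Lhx2, Lhx4, Lhx5, Lhx9, Pax3, Pax6, Gata5 and Osr2 were undetected in yolk sac and had passed the filter through their embryo arrays. The filter favoured a lower yolk sac level in them, so nothing is read from the count. Isl1 fell by 4.38 with 3 of 8 yolk sac arrays above background (at least 23.7-fold among wild types, where none was), Lhx5 was at least 2.87-fold and Lhx2 at least 2.00-fold lower in yolk sac, and Gata1, the erythroid GATA factor, was 1.54 higher.

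In the lateral plate and coelomic list 10 of 13 were tested in embryos, and 1 passed, where 2.13% of all genes did. Prrx1, of limb and head mesenchyme, fell by 0.81 (SE 0.13, limma adjusted p = 0.0317). Its call was lost without any single library other than mutant embryo 1 (adjusted p = 0.0587 to 0.136). The list's median was 0.06 in embryos, where 2 genes had an unadjusted p under 0.05 in limma, as had 1413 of all 11334 genes. In yolk sac 0 genes of this list passed in limma, where 1.26% of all genes did. An unadjusted p under 0.05 was found there for 1 of the 10 and for 2369 of all 11334 genes. Between tissues 4 were higher and 3 lower in yolk sac, where 36.7% of all genes were called higher and 40.9% lower. Among them were Upk3b (2.46 higher), Hand1 (1.62 higher), Prrx1 (at least 9.33-fold lower) and Nr2f2 (-1.81). Prrx1 and Tbx5, undetected in yolk sac, had passed the filter through their embryo arrays, so nothing is read from the tissue count.

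Among genes of sites where members are also expressed, the midbrain-hindbrain, interneuron and enteric crest list, 10 of 15 were tested in embryos. None rose, 2 fell and 8 did not pass, where 0.609% of all genes rose and 1.52% fell. The median of this list was -0.13. In limma 5 of the 10 had an unadjusted p under 0.05, as had 1413 of all 11334 genes. Dbx1, of interneuron progenitors, fell by 1.44 (SE 0.18, adjusted p = 0.0138), and Phox2a, of hindbrain and autonomic neurons, fell by 0.86 (SE 0.15, adjusted p = 0.0382). The call of Dbx1 was lost when wild-type embryo 1 was left out (adjusted p = 0.0577). Phox2a kept its call only when mutant embryo 1 was left out (adjusted p = 0.0694 to 0.139 without each of the others). All 10 genes were called lower in yolk sac, as were 40.9% of all genes. Their median was -3.96, led by Otx2 (at least 36.7-fold) and Sox10 (at least 21.6-fold). En1, Wnt1, Fgf8, Otx2, Dbx1, Phox2a and Sox10 were undetected in yolk sac, and En2 was above background there on 2 arrays. These genes had passed the filter through their embryo arrays, which favoured a lower yolk sac level. Nothing is therefore read from the count or the median.

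The genes with the pattern most like each member's were found among 5203 genes whose log2 level ranged over at least 1 across the 8 samples. For Lhx1 these were Hoxc9, a posterior Hox gene, at r = 0.936, Lin28a, an RNA-binding protein of immature cells, at 0.909, and Arhgap24 at 0.869. Hoxc9 stood at log2 levels of 4.68 and 5.5 in wild-type embryos, 8.73 and 8.6 in mutant embryos and 6.53 to 8.01 in yolk sacs, so the wild-type embryos were lowest for it as for Lhx1. For Ret they were Grem1 at 0.997, Col9a3 at 0.996 and Bhlha9 at 0.993. Osr1 was nearest to Fam83e at 0.988, Arhgap28 at 0.980 and Nsmaf at 0.977, and Gata3 to Cyria at 0.998, Hace1 at 0.995 and Fzd7 at 0.995. These correlations run over samples that differ mainly by tissue and are given without a test. The members correlated with each other at 0.465 for Lhx1 and Ret, 0.183 for Lhx1 and Osr1 and 0.174 for Lhx1 and Gata3, and at 0.899 for Ret and Osr1, 0.936 for Ret and Gata3 and 0.947 for Osr1 and Gata3.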

How the data were processed

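Total RNA of 8 samples was labelled and hybridized to 16 arrays. Each probe's deposited intensity is linear; the authors had subtracted background, leaving values below 0, and array medians were not aligned. The software they used is not given in the sources used here. The columns deposited as p-values hold a score from 0 to 1 that did not follow the signal (Spearman 0.00157 to 0.0106 per array), so each array's scores were matched to its signals by rank to serve as detection p-values, and calls above background rest on that step. The authors' processed log2 values, deposited centred within tissue, served as an alternative.

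Signals were normalized with neqc in limma 3.58.1 (R 4.3.3; offset 16), which puts all arrays on 1 distribution. Probes detected (p under 0.05) on at least 4 arrays were kept, 21193 of 45281. Of the 45281, 34885 had 1 symbol, 18 several and 10378 none. Repeat arrays were averaged and each gene took its brightest kept probe (4574 genes had several). One limma model with a mean per group (4 residual and 3.35 prior degrees of freedom) gave all contrasts, two-sided, with Benjamini-Hochberg adjustment over 11334 genes and a threshold of 0.05. An exact permutation of 2 against 2 cannot go below p = 0.333. For a group not above background, a bound sets its lowest detected signal on each array, or the probe's own if higher, against the brighter group. The members and lists were chosen with earlier results of these data known. Named genes were Bcas3, the members, the list genes past the threshold (at most 4 by size per contrast) and the 3 most similar genes per member. Gdnf, Bmp7, Fras1 and the embryo-proper markers are named besides, chosen after their values were seen. With repeat arrays averaged, the 2 conceptuses per group limit the precision. Data were simulated over 11334 genes, with 100 genes changed at each size. The fit recovered 77% of changes of log2 1 and 97% of log2 2 between embryos, and 79% and 96% between yolk sacs. For either contrast 11 unchanged genes were also called.

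By the labels, same-numbered embryo and yolk sac of a genotype share a conceptus (correlation of their deviations 0.0421 and 0.22). Same-numbered samples of both genotypes share only a number.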

Additional observations from a re-analysis of the deposited data

Results flagged for a closer look

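Lhx1 differed between yolk sac and embryo in opposite directions in the genotypes. Within conceptus, the mean of yolk sac minus embryo on the log2 scale was 0.88 in the 2 wild-type conceptuses (1.18 and 0.58) and -0.88 in the 2 mutant ones (-0.43 and -1.34), with both conceptuses of a genotype on the same side of 0. The difference between the genotypes was not tested, and the embryo levels in it are those that brought Lhx1 into the set.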

How the results depend on the processing

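Calls by genotype were sensitive to the processing. Each group had 2 samples, some signals were near background and 1 library had a Bcas3 reading unlike its group. The part of each in that sensitivity was not tested. The count of genes called between embryos was 241 (69 higher, 172 lower); it was 143 with median scaling, 24 with the tissue fitted alone, 24 in the pair of the series design, 0 with the authors' values (1059 at an unadjusted p under 0.05 in limma) and 51 to 207 leaving out a library, lowest without mutant embryo 2; without wild-type embryo 2 it was 85 higher and 48 lower, which turns the balance. Between yolk sacs it was 143 (64 higher, 79 lower); it was 241 with an offset of 50 (89 higher, 152 lower), 602 with median scaling (25 higher, 577 lower), 215 with no filter, 55 with the authors' values (37 higher, 18 lower), and 0 with first arrays only, with the replicate block and with the tissue fitted alone (1820, 2401 and 1673 at an unadjusted p under 0.05 in limma). Leaving out a library gave 0 to 110. The median of all genes there moved by -0.23 with median scaling and 0.10 with the authors' values. Median scaling over the kept probes, chosen after seeing the data, gave 111 higher and 69 lower there, and between tissues 4824 higher and 3920 lower against 4159 and 4635.

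Nothing is read from the members' calls in embryos, the contrast in view when they were chosen: 2 were called, 1 to 2 leaving out a library, and 0 with the authors' values, the tissue fitted alone or the embryo pair (2, 3 and 2 at an unadjusted p under 0.05 in limma). The kidney list gave 2 in embryos, 0 to 2 leaving out a library, 1 with no filter, 1 with median scaling over the kept probes, 1 with the replicate block, and 0 with the authors' values, the tissue fitted alone or the pair (6, 9 and 8 unadjusted in limma). The RET list gave 1, 0 to 1 leaving out a library, and 0 with an offset of 50, median scaling over the kept probes, the authors' values, the replicate block, the tissue fitted alone and the pair (4, 2, 2, 2, 5 and 1 unadjusted in limma). In yolk sac the kidney list gave 0, and 1 with the authors' values; the RET list gave 0, 1 with median scaling and 0 to 1 leaving out a library. For the genotype contrasts numbers pair nothing but names, and the replicate block (deviations correlated at 0.192 in embryos and 0.172 in yolk sacs) is given for that reason alone.

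In yolk sac Lhx1 turned to -0.20 with median scaling and ran from -0.041 (without mutant yolk sac 1) to 0.25 leaving out a library; Osr1 ran from -0.078 to 0.58 and Gata3 from -0.066 to 0.43, both lowest without mutant yolk sac 2. The tissue difference of Lhx1 turned to 0.11 with the mean of its probes and ran from -0.16 to 0.15 leaving out a library (0.12 without wild-type embryo 2, 0.15 without mutant embryo 2, 0.024 without wild-type yolk sac 2, 0.070 without mutant yolk sac 2). The embryo differences of Lhx1 and Ret were 1.45 and 1.20 with an offset of 50. The tissue counts of members (3), kidney (14) and RET genes (13) moved by at most 1 leaving out a library. The authors' values are centred within tissue and give no tissue contrast. The cause of these shifts was not tested.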
